A study of Mus musculus with 30 samples.

Results

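The genes described here are 10 genes of the YAP and TEAD pathway: the coactivators Yap1 and Wwtr1 (whose protein is called TAZ), the DNA-binding factor Tead1, and 7 genes the pathway is known to switch on, Ccn1 (also named Cyr61), Ccn2 (also named Ctgf), Ankrd1, Axl, Amotl2, Lats2 and Ajuba. They were chosen by name, with earlier results of these data known, as 10 of the 57186 gene rows of the count table. Each was found by its Ensembl identifier. RNA was sequenced from mouse NIH/3T3 cells, an embryonic fibroblast line grown in DMEM with serum, and from CGR8 cells, a mouse embryonic stem cell line grown in N2B27 with 2i and LIF. Both lines carried the genotype ROSA26 SLT knock-in at every time, so no group lacks it. Cycloheximide, a translation inhibitor, was given at 0.1 µg/mL for 0, 1, 2, 5 or 48 h before RNA extraction, with replicates A, B and C in each of the 10 groups and 30 libraries in all. The 0 h libraries are the untreated samples. There is no vehicle or time-matched untreated group, so time in culture and cycloheximide cannot be told apart. Each line is 1 line in 1 medium, so line, medium and serum cannot be told apart either. The labels do not say whether the replicates came from separate cultures, so the p-values measure only the spread between these libraries, which may be technical.

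YAP and TAZ have no DNA-binding domain of their own and reach promoters and enhancers through the TEAD proteins. The Hippo kinases MST and LATS phosphorylate YAP and TAZ, which keeps them in the cytoplasm or sends them to be degraded, while cell spreading, stiff substrates and serum lipids let them enter the nucleus. CCN1, CCN2 and ANKRD1 are the transcripts most often used to read out that activity, in fibroblasts above all. AMOTL2 and LATS2 in turn hold YAP back, so that the pathway induces its own inhibitors. Cycloheximide blocks elongation by the ribosome, and short-lived transcripts are known to accumulate when translation is blocked.

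The libraries held 18.2 M to 30.5 M counts. All 6 markers of stem cells (Esrrb, Zfp42, Nanog, Pou5f1, Tdgf1 and Dppa5a) were present in CGR8, with a summed level of 4242 to 7201 CPM (counts scaled to the library size, with TMM factors), against at most 0.546 CPM in NIH/3T3. Of 6 fibroblast markers, Col1a1, Col1a2, Col3a1 and Lox were present in NIH/3T3, while Postn (0.789 CPM at 0 h) and Thy1 (0.0367 CPM at 0 h) were nearly absent. Thy1 was higher in CGR8, at 1.48 to 4.51 CPM, and was the only 1 of the 6 to reach a mean of 1 CPM there. Some libraries stood apart from their group, as measured by the median absolute log2 deviation of a library from the mean of its group's other libraries. It was 0.32 in NIH/3T3 at 1 h replicate C and 0.30 in CGR8 at 2 h replicate A, against 0.07 in the closest library. In bulk RNA, a change in the share of cells that hold a transcript and a change in the amount per cell cannot be told apart.

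TEAD proteins bind a short core, GGAATG, that can be read on either strand, and the promoters of these genes are shown because the members differ so much in how they moved. RefSeq promoter windows on GRCm38.p6 were matched for 8 of the 10 members, but not for Ccn2 and Tead1. The 250 bases before the start were searched for GGAATG on both strands. The core was found in 7 of the 8 members and not in Lats2, and in 12.6% of 32851 promoter windows of the same length. The members were chosen as known genes of this pathway, so an excess over all windows could follow from that choice alone. The member count is per gene, with 2 windows each for Wwtr1 and Lats2, and the share is per window. A match describes the letters, not a bound site. The AP-1 motif TGAGTCA was in 0 of the 8 members (4.46% of all windows), and the serum response CArG box, searched on both strands, in 0 of the 8 (1.47%). No match of either therefore overlaps a TEAD core in these windows. The windows of Ccn1 (chr3:145649986-145650235, minus strand) and Ankrd1 (chr19:36119845-36120094, minus strand) run 5′ to 3′ towards the start, with the TEAD core in capitals on either strand. Both genes had steep early rises, as did Ccn2, which was not searched.

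Ccn1: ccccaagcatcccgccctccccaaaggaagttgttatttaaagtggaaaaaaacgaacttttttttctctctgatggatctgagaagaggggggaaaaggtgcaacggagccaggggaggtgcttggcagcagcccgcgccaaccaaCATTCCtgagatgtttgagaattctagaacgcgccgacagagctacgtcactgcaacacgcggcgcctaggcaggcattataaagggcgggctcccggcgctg
Ankrd1: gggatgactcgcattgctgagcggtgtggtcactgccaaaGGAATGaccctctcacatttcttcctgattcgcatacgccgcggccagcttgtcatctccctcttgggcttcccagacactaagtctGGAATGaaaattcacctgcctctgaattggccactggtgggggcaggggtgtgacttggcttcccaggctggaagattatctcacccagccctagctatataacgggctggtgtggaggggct

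Ccn1 held 1 core, 103 to 98 bases before the start, and Ankrd1 held 2, at 210 to 205 and 123 to 118 bases. The stretches of 30 bases around the core in 5 other members, which include genes that fell (Axl) and genes that stayed near their starting level (Yap1 and Wwtr1 in NIH/3T3), are set below one another for comparison. They lie at chr9:102717727-102717756 (Amotl2, plus strand), chr14:54577830-54577859 and chr14:54577808-54577837 (Ajuba, minus strand), chr7:25788949-25788978 (Axl, minus strand), chr9:8004720-8004749 (Yap1, minus strand) and chr3:57576029-57576058 (Wwtr1, minus strand).

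Amotl2: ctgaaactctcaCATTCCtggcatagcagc
Ajuba, upstream core: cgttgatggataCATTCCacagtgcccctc
Ajuba, downstream core: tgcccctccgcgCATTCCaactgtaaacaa
Axl: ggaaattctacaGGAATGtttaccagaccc
Yap1: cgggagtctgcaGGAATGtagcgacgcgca
Wwtr1: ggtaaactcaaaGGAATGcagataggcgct

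Before cycloheximide the pathway's transcripts stood at very different levels in the lines. On a scale of CPM per kilobase of exon, which allows genes to be compared, the order in untreated NIH/3T3 was Axl (161 ± 3.74, SD, n = 3), Ccn1 (89.5 ± 10.4), Wwtr1 (28.3 ± 1.73), Ccn2 (27.2 ± 2.70), Amotl2 (22.7 ± 0.283), Yap1 (14.3 ± 0.0595), Tead1 (13.4 ± 2.12), Ajuba (11.4 ± 0.490), Lats2 (3.24 ± 0.380) and Ankrd1 (0.799 ± 0.0809). In that order Wwtr1 and Ccn2, Yap1 and Tead1, and Tead1 and Ajuba had overlapping libraries. In untreated CGR8 the order was Ajuba (45.8 ± 3.30), Yap1 (17.8 ± 1.42), Amotl2 (14.6 ± 0.232), Tead1 (9.82 ± 1.82), Wwtr1 (9.18 ± 0.563), Ccn1 (6.90 ± 0.826), Ccn2 (4.45 ± 0.109), Axl (0.755 ± 0.147) and Lats2 (0.273 ± 0.0389), with Ankrd1 at 0 counts. There the libraries of Tead1 overlapped those of Wwtr1 and of Ccn1. The fibroblasts thus led with Axl and Ccn1 and the stem cells with Ajuba and Yap1.

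A gene was called where the edgeR quasi-likelihood test gave a Benjamini-Hochberg adjusted p under 0.05, over all genes tested. Between the untreated lines 9 of the 10 members were called, where 79.1% of all genes tested were called. Ajuba (log2 difference CGR8 minus NIH/3T3 of 2.01 ± 0.11, SE) and Yap1 (0.31 ± 0.08) were higher in CGR8. Axl, a receptor tyrosine kinase for GAS6, differed most among the members detected in both untreated lines, at -7.74 ± 0.17. Ccn1 differed by -3.70 ± 0.17, Lats2 by -3.55 ± 0.19, Ccn2 by -2.61 ± 0.17, Wwtr1 by -1.62 ± 0.10 and Amotl2 by -0.64 ± 0.13. Tead1 was not called (-0.45 ± 0.23, adjusted p = 0.0786), and was called without the NIH/3T3 0 h replicate C (adjusted p = 0.0463). The median of all genes in this comparison was 0.15. Ankrd1, an ankyrin-repeat protein of muscle sarcomeres and nuclei, was at 0 counts in every CGR8 library at 0, 1 and 48 h. With a floor of 3 counts per library, it was at least 20.5-fold lower in CGR8 at 0 h, at least 30.7-fold lower at 1 h and at least 13.3-fold lower at 48 h. It was not tested over time in CGR8, where the libraries held 5 counts in all at 2 h and 2 at 5 h.

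**Figure D1:**
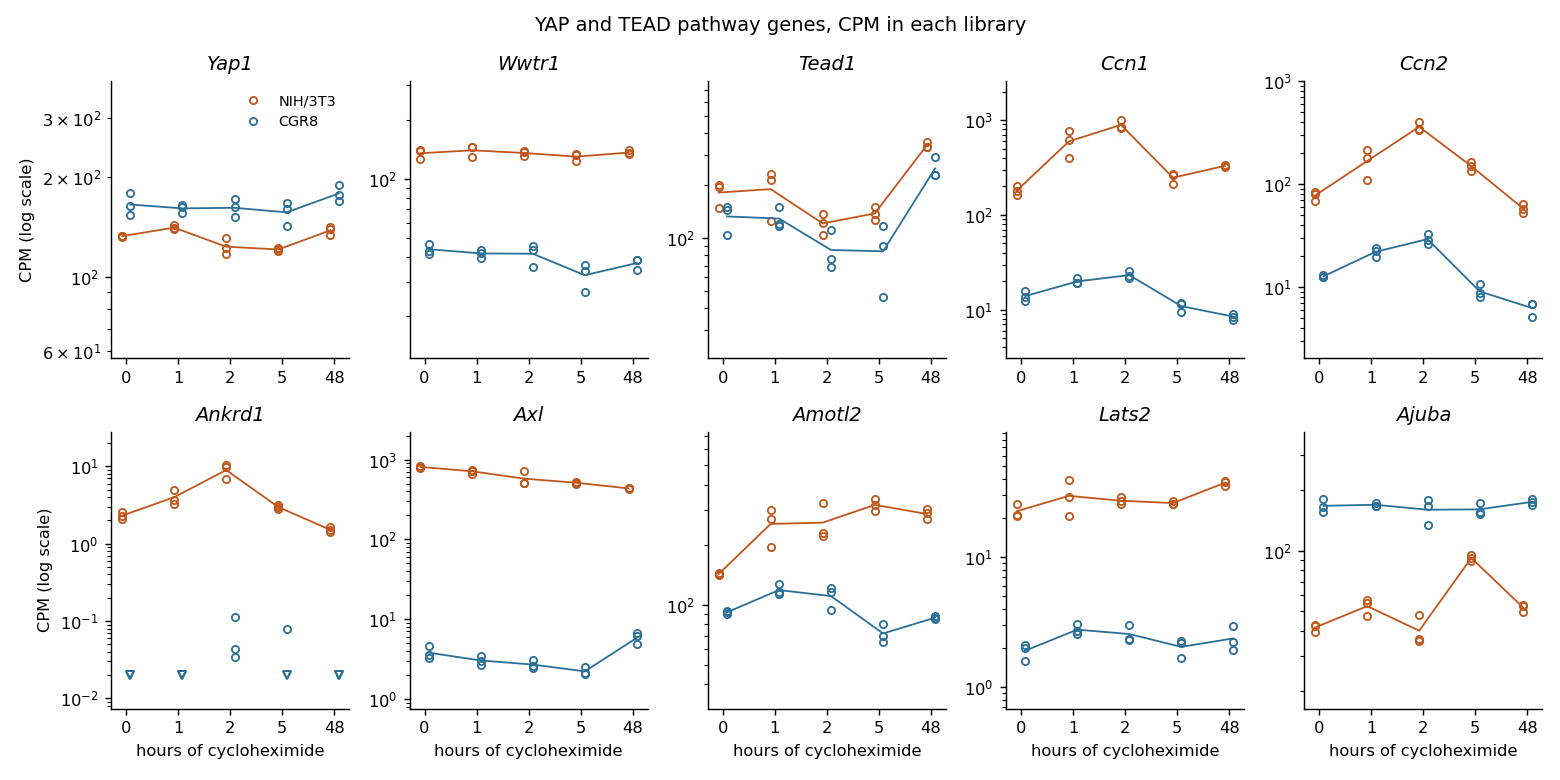
CPM of the 10 genes (vertical, log scale) at each time of cycloheximide in hours (horizontal, evenly spaced) in each library of NIH/3T3 (orange circles) and CGR8 (blue circles), with lines through the group means and triangles at 0.02 CPM for libraries at 0 counts. Ccn1, Ccn2 and Ankrd1 peak at 2 h in NIH/3T3 (means 892, 361 and 8.98 CPM), Ajuba at 5 h (91.8 CPM), and Tead1 is highest at 48 h in both lines (339 and 251 CPM).

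The coactivator transcripts moved little. In NIH/3T3, Yap1 was at 133, 132 and 133 CPM at 0 h in replicates A, B and C, 140, 143 and 139 at 1 h, 131, 122 and 117 at 2 h, 120, 122 and 121 at 5 h, and 141, 139 and 134 at 48 h. All 1 h libraries lay above the 0 h libraries and all 2 h and 5 h libraries below them, by small margins. Of all genes tested in NIH/3T3, 14.4%, 45.5%, 66.8% and 69.9% did not overlap with 0 h at 1, 2, 5 and 48 h. In CGR8 these shares were 25.0%, 31.9%, 54.6% and 48.7%. Libraries that lie clear of 0 h are therefore common in these data, for Yap1 and for the genes below. No change of Yap1 against 0 h was called: the log2 changes were 0.11, -0.07, -0.10 and 0.03, and the 95% intervals together ran from -0.25 (at 5 h) to 0.26 (at 1 h). Wwtr1 in NIH/3T3 was between 123 and 145 CPM in all 15 libraries, with changes of 0.08, 0.03, -0.02 and -0.01 and intervals from -0.19 to 0.24. The groups of Wwtr1 overlapped at every time.

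In CGR8, Yap1 was between 142 and 189 CPM in all 15 libraries, and its changes of -0.03, -0.05, -0.13 and 0.10 were not called, with intervals from -0.33 to 0.31. Wwtr1 was at 43.0, 46.9 and 41.7 CPM at 0 h, 42.2, 43.3 and 39.8 at 1 h, 45.6, 43.6 and 35.6 at 2 h, 26.6, 36.5 and 33.9 at 5 h, and 38.8, 34.3 and 38.8 at 48 h. The 5 h and 48 h libraries all lay below the 0 h libraries. Wwtr1 fell by 0.49 ± 0.13 on the log2 scale at 5 h (adjusted p = 0.00431), and its change at 48 h was -0.25 ± 0.13 (adjusted p = 0.165). The ratio of Yap1 to Wwtr1 counts was 3.75 ± 0.18 (SD, n = 3) at 0 h and 4.89 ± 0.41 at 5 h in CGR8, and 0.98 ± 0.06 and 0.93 ± 0.05 in NIH/3T3. The difference between the lines in the 5 h change of Wwtr1 was -0.38 (95% interval -0.67 to -0.09), which was not called (adjusted p = 0.0752), but was called without CGR8 5 h replicate A or replicate B (lowest adjusted p = 0.00606).

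Tead1, the TEAD member of the set, had its lowest mean at 2 h in NIH/3T3 and at 5 h in CGR8, and its highest at 48 h in both lines. In NIH/3T3 it was at 196, 202 and 149 CPM at 0 h, 214, 232 and 126 at 1 h, 123, 137 and 105 at 2 h, 128, 138 and 150 at 5 h, and 330, 355 and 331 at 48 h. The 48 h libraries lay above every other library of the line, the 2 h libraries lay below all 0 h libraries, and the 5 h libraries overlapped them. Tead1 fell by 0.55 ± 0.17 on the log2 scale at 2 h (adjusted p = 0.0231) and rose by 0.86 ± 0.17 at 48 h (adjusted p = 6.2e-04), a 1.82-fold rise. The 2 h call was lost without 0 h replicate A, 0 h replicate B or 2 h replicate C (highest adjusted p = 0.109). The 5 h change was -0.36 ± 0.17 (adjusted p = 0.0922), and it was called without 0 h replicate C (adjusted p = 0.0413). In CGR8 Tead1 was at 150, 105 and 145 CPM at 0 h, 151, 118 and 120 at 1 h, 68.8, 112 and 76.8 at 2 h, 46.1, 90.3 and 117 at 5 h, and 229, 230 and 292 at 48 h. The 48 h libraries again lay above all others, and the libraries at 1, 2 and 5 h overlapped those at 0 h. The change at 2 h was -0.65 ± 0.26 (adjusted p = 0.0912), and it was called without 2 h replicate B, which had the highest Tead1 of its group (adjusted p = 0.0297). The change at 5 h was -0.71 ± 0.27 (adjusted p = 0.0338), lost without 0 h replicate A or C or 5 h replicate A or B (highest adjusted p = 0.145), and at 48 h it was 0.90 ± 0.26 (adjusted p = 0.0182), lost without 0 h replicate B or 48 h replicate C (highest adjusted p = 0.0810). The 48 h changes differed between the lines by 0.02 (interval -0.66 to 0.69).

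Tead1 has 13.6 kb of annotated exon, the longest of the 10 genes. Long transcripts as a class moved in the same direction against 0 h at 2, 5 and 48 h in both lines. At 1 h in CGR8 they did not, with a change of -0.04 for Tead1. Of genes with at least 10000 bases of exon, 1190 were tested in NIH/3T3, and their median log2 change was 0.05, -0.25, -0.14 and 0.38 at 1, 2, 5 and 48 h. In CGR8 the median of 1305 such genes was 0.04, -0.29, -0.49 and 0.16. At 48 h, 18.5% of the long genes in NIH/3T3 and 5.13% in CGR8 had a change at or above that of Tead1. Among replicates, the library with the lowest Tead1 was also the one with the lowest long-gene level in 7 of 10 groups, the library with the highest was the same in 9 of 10, and the library with the lowest share of mitochondrial counts had the lowest Tead1 in 8 of 10. This length limit was chosen after the values were seen, and the part of transcript length or RNA quality in the Tead1 changes was not tested.

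**Figure D2:**
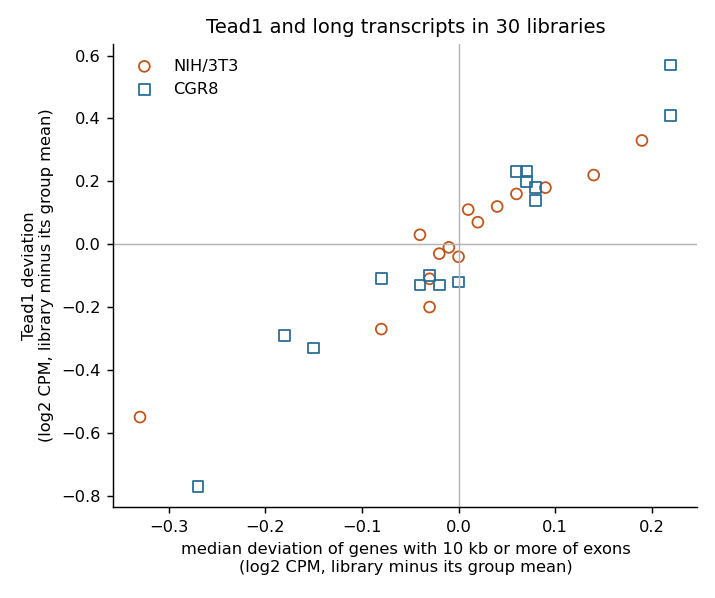
Deviation of Tead1 from its group mean (vertical, log2 CPM) against the median deviation of genes with 10 kb or more of exon (horizontal, log2 CPM) in the 15 NIH/3T3 libraries (circles) and the 15 CGR8 libraries (squares). Libraries with low Tead1 lie to the left and libraries with high Tead1 to the right, in both lines.

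The secreted matricellular targets gave the steepest rises. In NIH/3T3, Ccn1, whose protein binds integrins, was at 179, 161 and 203 CPM at 0 h, 619, 774 and 397 at 1 h, 1014, 824 and 838 at 2 h, 262, 211 and 269 at 5 h, and 320, 339 and 330 at 48 h. Every library after 0 h lay above the 0 h libraries. Ccn1 rose 3.36-fold at 1 h (log2 1.75 ± 0.18, adjusted p = 2.1e-05) and 5.05-fold at 2 h (2.34 ± 0.18, adjusted p = 1.4e-07). It then fell by 1.85 on the log2 scale from 2 h to 5 h (adjusted p = 1.5e-06). At 48 h it was 0.84 ± 0.17 above the start (adjusted p = 7.7e-04). The 5 h difference from 0 h was 0.49 ± 0.17 (adjusted p = 0.0269), a call lost without 0 h replicate A or B or 5 h replicate A or C (highest adjusted p = 0.102). At 1 h the lowest value of Ccn1 came from replicate C, the library that stood apart, and without it the rise was 1.95.

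Ccn2, a related matrix protein that promotes fibrosis, was at 80.9, 68.9 and 83.3 CPM at 0 h in NIH/3T3, 180, 215 and 110 at 1 h, 405, 336 and 344 at 2 h, 152, 135 and 163 at 5 h, and 52.6, 63.8 and 57.2 at 48 h. The libraries at 1, 2 and 5 h all exceeded those at 0 h, and those at 48 h all lay below them. Ccn2 rose 2.21-fold at 1 h (log2 1.14 ± 0.17, adjusted p = 0.00209), 4.76-fold at 2 h (2.25 ± 0.18, adjusted p = 2.0e-07) and 1.98-fold at 5 h (0.99 ± 0.17, adjusted p = 2.0e-04). At 48 h it was lower by a log2 change of -0.45 ± 0.17 (adjusted p = 0.0375), a call lost without replicate A or C of 0 h or of 48 h (highest adjusted p = 0.130), and with library totals as the only scaling (adjusted p = 0.0983). At 0, 1, 2, 5 and 48 h in turn, the Ccn1 to Ccn2 count ratio was 2.32 ± 0.11 (SD, n = 3), 3.55 ± 0.09, 2.46 ± 0.04, 1.64 ± 0.08 and 5.72 ± 0.40. So the genes rose together at 1 and 2 h and stood on opposite sides of their starting levels at 48 h.

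Ankrd1 kept a lower level with a similar outline. In NIH/3T3 it was at 2.26, 2.10 and 2.56 CPM at 0 h, 3.72, 5.02 and 3.25 at 1 h, 6.78, 10.3 and 9.84 at 2 h, 3.14, 3.02 and 2.79 at 5 h, and 1.41, 1.64 and 1.49 at 48 h, on 28 to 257 counts a library. No group after 0 h overlapped with it, and 14.4%, 45.5%, 66.8% and 69.9% of all genes likewise did not overlap at 1, 2, 5 and 48 h. The 2 h rise was 3.97-fold (log2 1.99 ± 0.18, adjusted p = 9.0e-07). The changes at 1 h (0.81 ± 0.19, adjusted p = 0.0571) and 5 h (0.40 ± 0.19, adjusted p = 0.0965) were not called, though the 1 h change was called without 1 h replicate C (adjusted p = 0.0148). At 48 h Ankrd1 was lower, by a log2 change of -0.64 ± 0.21 (adjusted p = 0.0194), a call lost without 0 h replicate C or 48 h replicate A (highest adjusted p = 0.0799).

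Over the 15 NIH/3T3 libraries, the genes whose log2 CPM followed these targets most closely were sought among 8496 genes ranked. For Ccn1 they were Dusp1 (Pearson r = 0.97), Btg2 (0.94), Ptger4 (0.93), Dusp6 (0.92) and Klf6 (0.92). For Ccn2 they were Nr1d1 (0.99), Plk2 (0.97), Atf3 (0.96), Klf2 (0.96) and Atl2 (0.95). For Ankrd1 they were Atf3 (0.98), Bcl10 (0.98), Flrt3 (0.97), Nabp1 (0.97) and Sertad1 (0.97). The libraries share the 5 times and their normalization, so these values are a description only.

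In CGR8 the CCN transcripts started lower and ended below their starting level. Ccn1 was at 12.5, 15.8 and 13.5 CPM at 0 h, 21.4, 19.2 and 19.1 at 1 h, 25.4, 22.5 and 21.7 at 2 h, 11.5, 11.8 and 9.45 at 5 h, and 8.47, 9.04 and 7.87 at 48 h. The 1 h and 2 h libraries all lay above the 0 h libraries, and the 5 h and 48 h libraries all below. Ccn1 was 1.64-fold higher at 2 h (log2 0.72 ± 0.12, adjusted p = 9.7e-04), lower by a log2 change of -0.41 ± 0.12 at 5 h (adjusted p = 0.00973) and of -0.73 ± 0.12 at 48 h (adjusted p = 3.4e-04). The 1 h change of 0.52 ± 0.12 was not called (adjusted p = 0.0976), and the 5 h call was lost without 0 h replicate B (adjusted p = 0.0673).

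Ccn2 in CGR8 was at 12.5, 12.6 and 13.1 CPM at 0 h, 24.0, 22.3 and 19.7 at 1 h, 33.0, 28.4 and 26.4 at 2 h, 10.6, 7.96 and 8.71 at 5 h, and 5.07, 6.88 and 6.86 at 48 h. Ccn2 did not overlap with 0 h at any time, nor did 25.0%, 31.9%, 54.6% and 48.7% of all genes at 1, 2, 5 and 48 h. It rose by 0.79 ± 0.14 at 1 h (adjusted p = 0.0220) and 1.18 ± 0.14 at 2 h (adjusted p = 8.8e-05), and fell by 0.54 ± 0.15 at 5 h (adjusted p = 0.00558) and 1.03 ± 0.15 at 48 h (adjusted p = 9.0e-05) on the log2 scale. The 1 h call was lost whichever of the 6 libraries was left out (adjusted p between 0.0599 and 0.146). A gene on the opposite strand that shares exon bases with Ccn2, Gm15270, had 5 to 15 counts a library in CGR8, up to 8.11% of the Ccn2 count, and 0 to 7 counts in NIH/3T3, up to 0.299%. Whether the counting used strand is not given in the sources used here, so at its low CGR8 level part of the Ccn2 count is uncertain.

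Axl had a lower mean at each later time in the fibroblasts. In NIH/3T3 it was at 811, 792 and 830 CPM at 0 h, 730, 745 and 665 at 1 h, 716, 506 and 510 at 2 h, 500, 510 and 529 at 5 h, and 429, 442 and 435 at 48 h. Every later library lay below the 0 h libraries, and the 48 h libraries below all others. Axl fell by 0.46 ± 0.11 on the log2 scale at 2 h (adjusted p = 0.00645), 0.63 ± 0.11 at 5 h (adjusted p = 2.6e-04) and 0.93 ± 0.11 at 48 h (adjusted p = 6.0e-06). The change at 1 h was -0.16 ± 0.11 (adjusted p = 0.653). The steps from 1 h to 2 h (-0.30, adjusted p = 0.0782) and from 2 h to 5 h (-0.17, adjusted p = 0.302) were not called. In CGR8, at 40 to 164 counts a library, Axl was at 3.53, 4.63 and 3.23 CPM at 0 h, 3.00, 3.41 and 2.69 at 1 h, 2.58, 3.08 and 2.42 at 2 h, 2.50, 2.03 and 2.11 at 5 h, and 4.82, 6.06 and 6.62 at 48 h. The 2 h and 5 h libraries lay below all 0 h libraries and the 48 h libraries above them. The 2 h change was -0.51 ± 0.18 (adjusted p = 0.0624), and it was called without 2 h replicate B (adjusted p = 0.0370). The 5 h change was -0.83 ± 0.19 (adjusted p = 0.00193) and the 48 h change 0.61 ± 0.18 (adjusted p = 0.0167), the latter lost without 0 h replicate A or C or 48 h replicate B or C (highest adjusted p = 0.0877).

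Markers of other cells were checked beside the 48 h values in CGR8. The 4 primitive endoderm markers summed to 2.32 to 2.74 CPM at 0 h and 3.43 to 4.20 CPM at 48 h, and of the 4 only Gata4 was higher at 48 h by more than its SD (1.19 ± 0.120 CPM at 0 h and 3.40 ± 0.390 CPM at 48 h). Sox7 was at 0.970 ± 0.142 and 0.263 ± 0.159 CPM at 0 h and 48 h, Gata6 at 0.271 ± 0.145 and 0.116 ± 0.0826 CPM, and Sox17 at 0.113 ± 0.0449 and 0.114 ± 0.0363 CPM. The mesoderm gene T was at 3.41 ± 0.202 CPM at 0 h and 0.812 ± 0.132 CPM at 48 h, and the epiblast gene Fgf5 was below 1 CPM at both times (0.237 and 0.129 CPM). The stem cell markers summed to 4242 to 4523 CPM at 0 h and 4735 to 5234 CPM at 48 h. The part of such cells in the 48 h changes was not tested.

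The inhibitors and the LATS-binding LIM protein Ajuba took separate courses. In NIH/3T3, Amotl2, an angiomotin that holds YAP at cell junctions, was at 141, 142 and 145 CPM at 0 h, 268, 300 and 195 at 1 h, 323, 222 and 229 at 2 h, 316, 295 and 339 at 5 h, and 268, 301 and 287 at 48 h. Every later library was above the 0 h libraries. The 48 h level differed from the 5 h level by a log2 change of -0.21 (95% interval -0.52 to 0.10). Amotl2 rose by 0.86 ± 0.15 on the log2 scale at 1 h (adjusted p = 0.00671), 0.89 ± 0.15 at 2 h (adjusted p = 4.9e-04), 1.18 ± 0.15 at 5 h (adjusted p = 1.0e-05) and 0.97 ± 0.15 at 48 h (adjusted p = 5.5e-05). The 1 h call was lost without 0 h replicate A (adjusted p = 0.0551). In CGR8 Amotl2 was at 93.1, 92.3 and 90.3 CPM at 0 h, 127, 116 and 113 at 1 h, 116, 122 and 94.0 at 2 h, 65.6, 80.5 and 69.8 at 5 h, and 87.6, 85.1 and 86.3 at 48 h. The early libraries all lay above those at 0 h, and those at 5 h and 48 h below. The 5 h change, -0.41 ± 0.11 (adjusted p = 0.00527), was called, and those at 1 h (0.37 ± 0.11), 2 h (0.25 ± 0.11) and 48 h (-0.10 ± 0.11) were not. The 2 h change was called without 2 h replicate C (adjusted p = 0.0381).

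Ajuba, a scaffold that binds LATS kinases at junctions, was at 39.4, 42.8 and 42.1 CPM at 0 h in NIH/3T3, 56.6, 55.0 and 47.1 at 1 h, 48.0, 35.4 and 36.4 at 2 h, 88.7, 91.7 and 95.0 at 5 h, and 49.6, 53.1 and 53.3 at 48 h. Only the 2 h libraries overlapped those at 0 h, and the 5 h libraries stood clear of all others. Ajuba rose 2.27-fold at 5 h (log2 1.18 ± 0.11, adjusted p = 6.1e-07), later than Ccn1, Ccn2 and Ankrd1. From 2 h to 5 h it rose by 1.20 ± 0.11 (adjusted p = 9.5e-07), and from 5 h to 48 h it fell by 0.88 ± 0.11 (adjusted p = 3.3e-06). The 48 h difference from 0 h was 0.30 ± 0.11 (adjusted p = 0.0324), lost without 0 h replicate A or C or 48 h replicate B or C (highest adjusted p = 0.113). Its 1 h change of 0.38 ± 0.11 (adjusted p = 0.159) was called without 1 h replicate C (0.43, adjusted p = 0.0342). In CGR8, where it was more abundant, Ajuba was between 134 and 180 CPM in all 15 libraries and was never called against 0 h, with 95% intervals of its log2 change from -0.34 to 0.28.

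Lats2, the kinase that phosphorylates YAP and TAZ, was at 25.6, 20.8 and 21.2 CPM at 0 h in NIH/3T3, 28.7, 39.2 and 20.7 at 1 h, 25.5, 28.7 and 27.1 at 2 h, 25.4, 25.5 and 27.1 at 5 h, and 35.3, 38.5 and 38.0 at 48 h. The libraries at 1, 2 and 5 h overlapped those at 0 h, and those at 48 h lay above them. Lats2 rose by 0.70 ± 0.16 at 48 h (adjusted p = 0.00158), and its changes of 0.42, 0.30 and 0.24 at 1, 2 and 5 h were not called. The 1 h change was called without 1 h replicate C (0.60, adjusted p = 0.0102). In CGR8 Lats2 had only 37 to 87 counts a library, or 1.60 to 3.05 CPM, and no change was called, with 95% intervals that reached 0.96 at 1 h. A same-strand gene, Gm49361, shares exon bases with Lats2 and had at most 2 counts a library, up to 5.41% of the Lats2 count in CGR8.

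**Figure D3:**
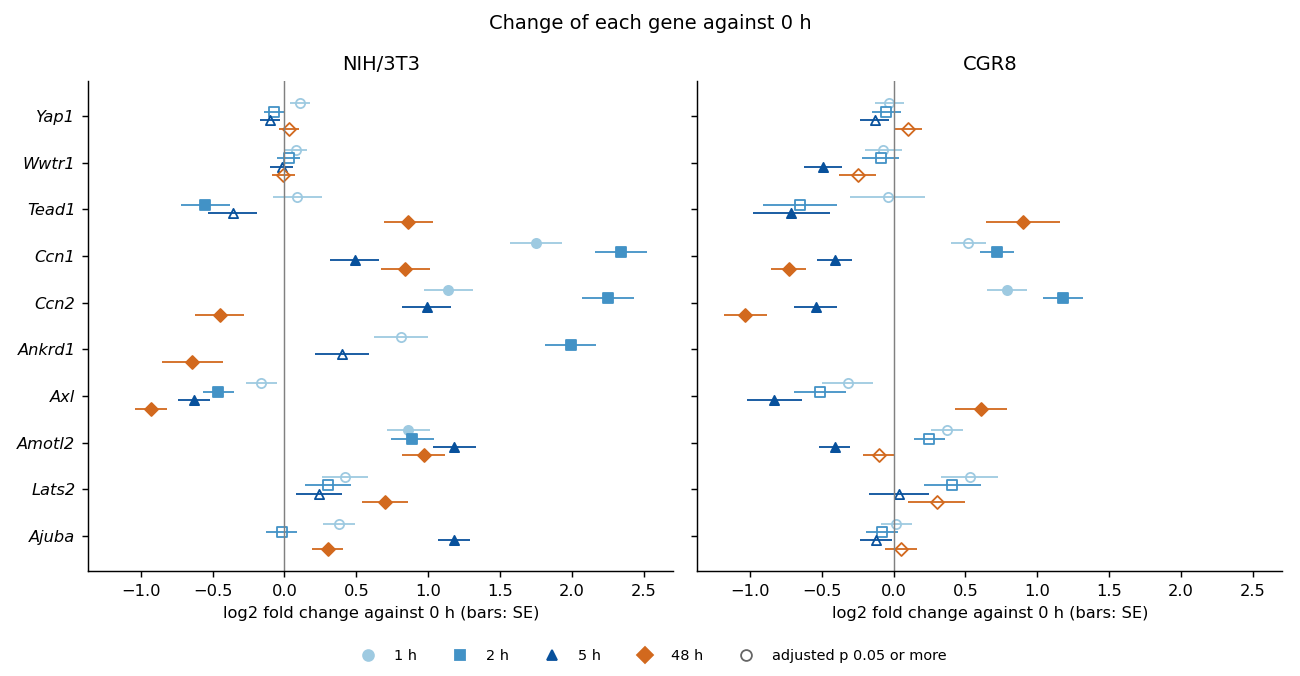
Log2 fold change of each gene against 0 h (horizontal, with SE bars) at 1, 2, 5 and 48 h of cycloheximide in NIH/3T3 (left) and CGR8 (right), filled where the adjusted p was under 0.05. Yap1 and Wwtr1 lie near 0 in NIH/3T3, Ccn1 and Ccn2 at 2 h reach 2.34 and 2.25 there against 0.72 and 1.18 in CGR8, and Axl at 48 h is on opposite sides of 0 in the lines.

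The members' calls are set beside the share of all genes called, which was small at 1 h and large at the later times. In NIH/3T3, 3 of 10 members were called at 1 h, all higher, where 0.732% of all genes were called and 0.653% were called higher; without 1 h replicate C the count was 6, with Ankrd1, Lats2 and Ajuba added. In a fit of the 0 h and 1 h libraries alone the count was 1, Ccn1, and Ccn2 (adjusted p = 0.190) and Amotl2 (adjusted p = 0.123) were not called. At 2 h, 6 of 10 were called (4 higher, 2 lower) against 35.0% of all genes, at 5 h 5 of 10 (4 higher, 1 lower) against 51.0%, and at 48 h 8 of 10 (5 higher, 3 lower) against 52.3%. In CGR8, 1 of the 9 members tested was called at 1 h against 0.270% of all genes, 2 of 9 at 2 h against 19.9%, 6 of 9 at 5 h against 52.1%, and 4 of 9 at 48 h against 27.8%. The 2 h calls were Ccn1 and Ccn2, both higher (8.97% of all genes were called higher), and all 6 calls at 5 h were lower (27.2% of all genes). The CGR8 5 h libraries A and B had the lowest share of mitochondrial counts (0.262% in each) and the lowest TMM factors (0.90 and 0.88) of the 15, and of the 1305 long genes 639 were called lower and 69 higher at 5 h; the part of these in the 5 h changes was not tested. These comparisons share their 0 h libraries, and the members were chosen with earlier results of these data known.

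Steps between consecutive times are not set against 0 h, but the 0 h libraries remained in the fit of each line's 15 libraries. From 1 h to 2 h in NIH/3T3, 5 of 10 members were called, against 17.4% of all genes: Ccn1, Ccn2 and Ankrd1 rose further (0.59, 1.11 and 1.18 on the log2 scale), and Tead1 and Ajuba fell. The calls of Ccn1, Tead1 and Ajuba in this step were each lost without some single library (highest adjusted p = 0.0934, 0.133 and 0.142), and in a fit of the 1 h and 2 h libraries alone 0 of the 10 were called, with adjusted p = 0.0618 for Ccn2 and 0.0600 for Ankrd1. From 2 h to 5 h, 4 of 10 were called against 23.1%: Ccn1, Ccn2 and Ankrd1 fell, by 1.85, 1.27 and 1.59, while Ajuba rose. From 5 h to 48 h, 6 of 10 were called against 65.6%. Tead1 rose by 1.23 ± 0.18 (adjusted p = 1.4e-05), and Ccn2 and Ankrd1 fell by 1.44 ± 0.18 and 1.04 ± 0.21. The calls of Axl (-0.30) and Lats2 (0.46) were each lost without some single library (highest adjusted p = 0.0841 and 0.0564). In CGR8, 0 of 9 members were called from 1 h to 2 h with edgeR (6.59% of all genes). From 2 h to 5 h, 4 of 9 were called against 19.1%, all lower (11.2% of all genes): Ccn2 fell by 1.72, Ccn1 by 1.13, Amotl2 by 0.66 and Wwtr1 by 0.40, the last a call lost without 2 h replicate A or B or 5 h replicate A (highest adjusted p = 0.189). From 5 h to 48 h, 5 of 9 were called against 57.5%, led by Tead1 (1.61 ± 0.27) and Axl (1.44 ± 0.19), both higher, while the calls of Ccn1, Ccn2 and Amotl2 were each lost without some single library (highest adjusted p = 0.128, 0.0628 and 0.112).

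A test of the difference itself showed where the lines parted. It subtracts the NIH/3T3 change from the CGR8 change, in 1 fit of all 30 libraries, and 9 members have an estimate. Ccn1 was called at every time: the difference was -1.21 ± 0.22 at 1 h (adjusted p = 0.00858), -1.57 ± 0.22 at 2 h (adjusted p = 3.9e-05), -0.81 ± 0.23 at 5 h (adjusted p = 0.0173) and -1.58 ± 0.23 at 48 h (adjusted p = 9.5e-06). Ccn2 differed at 2 h (-1.02 ± 0.23, adjusted p = 0.0128) and 5 h (-1.44 ± 0.24, adjusted p = 1.3e-04), but not by call at 1 h (-0.33, interval -0.81 to 0.15) or 48 h (-0.60, interval -1.09 to -0.10). Amotl2 differed at 5 h (-1.50 ± 0.19, adjusted p = 2.9e-06) and 48 h (-1.09 ± 0.19, adjusted p = 9.0e-05), and Ajuba at 5 h (-1.21 ± 0.15, adjusted p = 2.6e-06). Axl at 48 h was the only call in the other direction (1.52 ± 0.19, adjusted p = 1.5e-06). Members called numbered 1, 2, 4 and 3 at 1, 2, 5 and 48 h, against 0.160%, 2.02%, 13.3% and 21.9% of all genes. The median of all genes at 5 h was 0.13 with TMM factors and -0.06 with library totals alone. Both scalings are relative to the library, so a change in total RNA per cell was not tested.

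**Figure D4:**
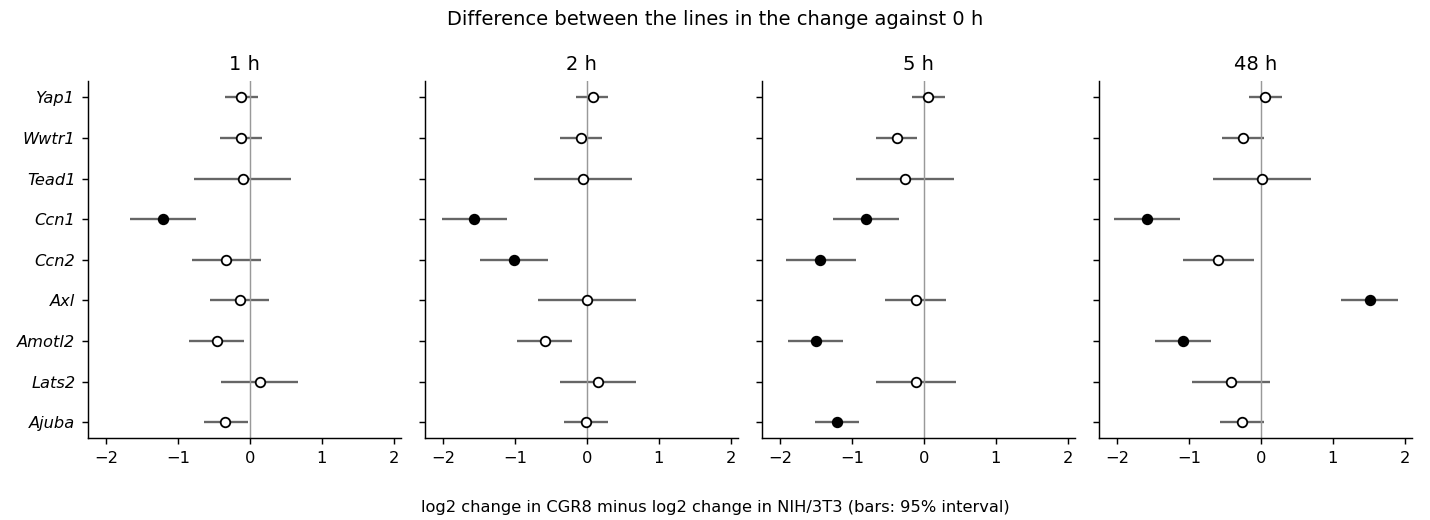
Log2 change in CGR8 minus log2 change in NIH/3T3 (horizontal, with 95% intervals) at 1, 2, 5 and 48 h for the 9 genes with an estimate, filled where the adjusted p was under 0.05. Ccn1 lies left of 0 at every time, Amotl2 and Ajuba at -1.50 and -1.21 at 5 h, and Axl at 1.52 at 48 h.

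The rest of the pathway was read from lists of 21 upstream kinases and scaffolds, 7 further TEAD and VGLL partners of the complex, and 16 other target genes. Of the kinases and scaffolds 20 were tested, and Fat4 was not. In NIH/3T3, with edgeR, 0 were called at 1 h (3 without 1 h replicate C, 4 by DESeq2), 11 at 2 h (2 higher, 9 lower), 13 at 5 h (2 higher, 11 lower) and 14 at 48 h (9 higher, 5 lower), where 0.732%, 35.0%, 51.0% and 52.3% of all genes were called. Of all genes, 18.9% were called lower at 2 h and 27.1% at 5 h. The list medians were -0.38, -0.32 and 0.19 at the last 3 times, where all genes had -0.01. Rassf1, a scaffold that activates MST kinases, rose at 5 h from 33.2 ± 3.39 to 68.1 ± 2.82 CPM (log2 1.07 ± 0.11, adjusted p = 1.9e-06). Dchs1, an atypical cadherin, rose at 48 h from 0.270 ± 0.0286 to 1.64 ± 0.131 CPM (2.53 ± 0.28). Taok2, a kinase upstream of MST, fell at 2 h from 65.7 ± 0.652 to 29.8 ± 0.992 CPM (adjusted p = 2.2e-05). Wwc1 (KIBRA), an upstream scaffold, fell at 48 h from 50.9 ± 1.73 to 23.6 ± 0.894 CPM (adjusted p = 1.2e-07).

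In CGR8 most calls of the same list at 5 h were lower. Called were 1 at 1 h (higher), 9 at 2 h (1 higher, 8 lower), 15 at 5 h (1 higher, 14 lower) and 8 at 48 h (3 higher, 5 lower), against 0.270%, 19.9%, 52.1% and 27.8% of all genes in either direction and 27.2% lower at 5 h. The medians at the last 3 times were -0.38, -0.61 and -0.20, and at 5 h the median of the long genes was -0.49; the part of transcript length or RNA quality in these counts was not tested. The one that was higher at 5 h was Rassf1 (7.45 ± 0.984 to 14.9 ± 1.20 CPM, log2 0.94 ± 0.13, adjusted p = 2.6e-05). Taok3, a TAO kinase, fell at 5 h from 8.08 ± 0.104 to 2.51 ± 0.403 CPM and the angiomotin Amot from 2.71 ± 0.410 to 0.871 ± 0.374 CPM. Map4k4, a kinase that can act on LATS in place of MST, rose at 48 h from 222 ± 13.2 to 331 ± 2.53 CPM (0.56 ± 0.10, adjusted p = 5.8e-04).

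Among the partners, Tead2, Tead3, Tead4, Vgll3 and Vgll4 were tested, and Vgll1 and Vgll2 were not. In NIH/3T3, 0, 2, 4 and 5 of the 5 were called at 1, 2, 5 and 48 h, against 0.732%, 35.0%, 51.0% and 52.3% of all genes. The TEAD genes went in different directions there: Tead4 fell at 48 h from 112 ± 0.587 to 47.6 ± 1.95 CPM (log2 -1.27 ± 0.09, adjusted p = 3.4e-08) and Tead2 fell at 5 h from 109 ± 8.99 to 55.1 ± 3.31 CPM, while Tead3 rose at 48 h from 8.96 ± 1.19 to 16.3 ± 1.21 CPM. Vgll3, a cofactor that binds TEAD in place of YAP, rose at 48 h from 37.5 ± 1.93 to 74.8 ± 6.91 CPM (0.97 ± 0.09, adjusted p = 5.4e-07). In CGR8, 0, 2, 5 and 2 of the 5 were called at 1, 2, 5 and 48 h, against 0.270%, 19.9%, 52.1% and 27.8% of all genes. All 5 were lower at 5 h (27.2% of all genes), with a median of -1.12. Vgll3 fell there at 5 h from 2.94 ± 0.431 to 0.773 ± 0.168 CPM (-1.99 ± 0.25) and Tead3 from 2.19 ± 0.444 to 0.980 ± 0.0193 CPM. The line difference was called for 0, 1, 2 and 3 of the 5 at 1, 2, 5 and 48 h. Of all genes, 0.160%, 2.02%, 13.3% and 21.9% were called. Vgll3 differed by -0.93 at 2 h (adjusted p = 0.00939) and -2.42 at 5 h (adjusted p = 4.2e-08). At 48 h Vgll3 differed by -1.34 (adjusted p = 1.5e-05) and Tead4 by 1.14 (adjusted p = 1.8e-05), the only call in that direction. Vgll4 differed by -0.89 at 5 h (adjusted p = 0.00143) and -0.83 at 48 h (adjusted p = 8.5e-04). Vgll3 had only 15 to 86 counts a library in CGR8.

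The other target genes, taken from published YAP signatures, moved in both directions. Of 12 tested in NIH/3T3, 0 were called at 1 h, 10 at 2 h (3 higher, 7 lower), 9 at 5 h (4 higher, 5 lower) and 6 at 48 h, all higher, against 0.732%, 35.0%, 51.0% and 52.3% of all genes. Of all genes, 18.9% were called lower at 2 h and 26.7% higher at 48 h. The medians at the last 3 times were -0.39, -0.15 and 0.25. Nuak2, an AMPK-related kinase, rose at 5 h from 9.16 ± 0.656 to 27.3 ± 2.23 CPM (log2 1.61 ± 0.18, adjusted p = 4.3e-06) and F3, tissue factor, at 2 h from 47.6 ± 3.23 to 94.8 ± 27.5 CPM (1.02 ± 0.20, adjusted p = 0.00155). Ptpn14, a phosphatase that restrains YAP, fell at 5 h from 67.3 ± 3.17 to 40.5 ± 1.55 CPM, and the secreted Fjx1 fell at 2 h from 3.46 ± 0.294 to 1.98 ± 0.239 CPM. In CGR8, of 13 tested, 0, 8 (1 higher, 7 lower), 12 (2 higher, 10 lower) and 7 (3 higher, 4 lower) were called at 1, 2, 5 and 48 h, against 0.270%, 19.9%, 52.1% and 27.8% of all genes, with a median of -0.81 at 5 h. Ptpn14 fell at 5 h from 17.6 ± 2.03 to 6.50 ± 1.41 CPM and was at 39.2 ± 4.19 CPM at 48 h (1.14 ± 0.16 above 0 h, adjusted p = 5.7e-05). Fjx1 fell at 5 h from 17.9 ± 0.277 to 6.45 ± 0.358 CPM, and Tgfb2, a TGF-beta ligand, rose at 48 h from 0.737 ± 0.0356 to 1.53 ± 0.174 CPM. The 2 h changes of Nuak2 and F3 differed between the lines, by -1.91 and -2.09 (adjusted p = 4.8e-06 and 4.1e-04), the same direction as those of Ccn1 and Ccn2. Nuak2 and F3 were the 2 called of 15 tested for this difference, against 2.02% of all genes, and the list median was -0.12. F3 had only 13 to 80 counts a library in CGR8.

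**Figure D5:**
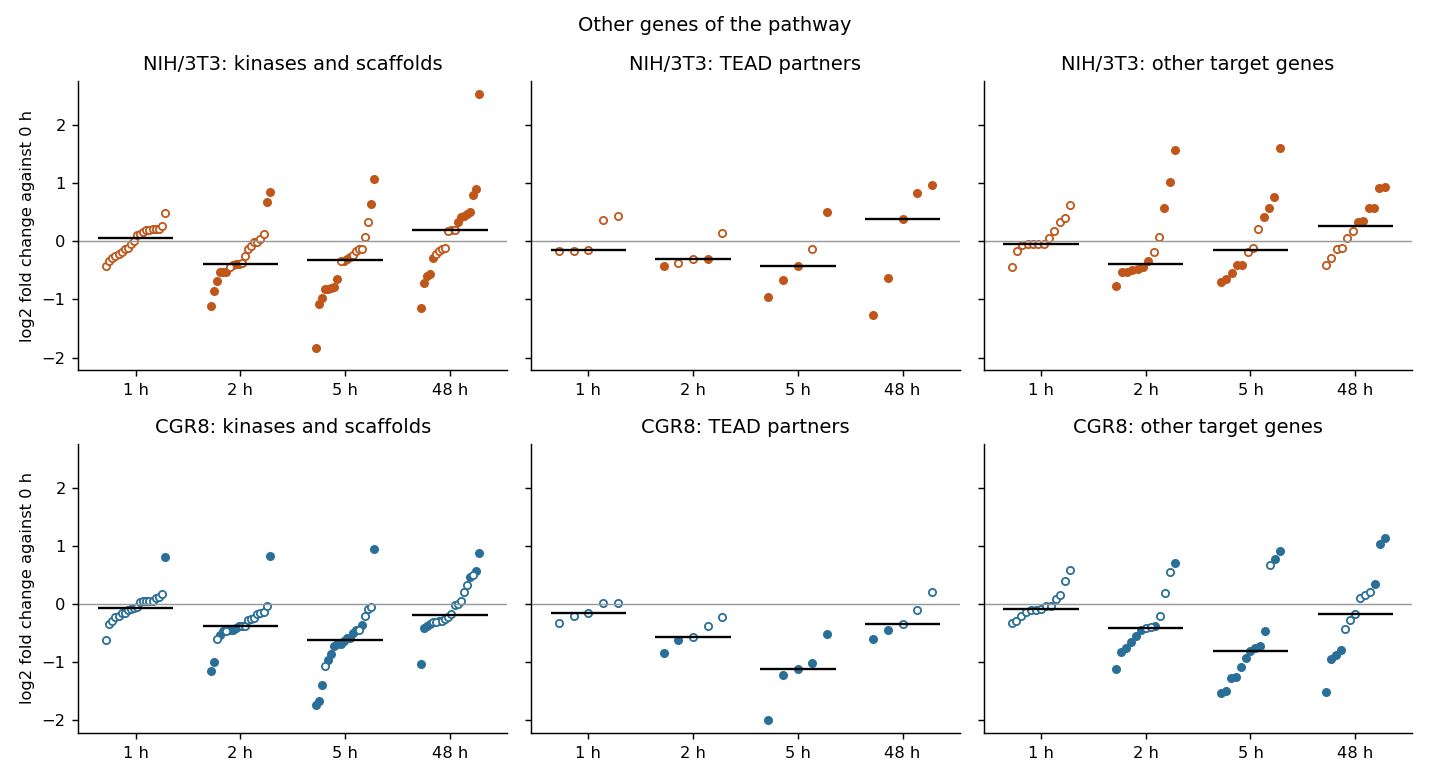
Log2 fold change against 0 h (vertical) of the other genes of the pathway at 1, 2, 5 and 48 h (horizontal) in NIH/3T3 (upper row) and CGR8 (lower row), 1 point per gene tested, filled where the adjusted p was under 0.05, with a bar at the median. At 5 h in CGR8 the medians of the lists of kinases and scaffolds, TEAD partners and other target genes lie at -0.61, -1.12 and -0.81.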

How the data were processed

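The authors deposited raw counts per gene for the 30 libraries. Per the labels' protocols, RNA came from RNeasy columns and Illumina stranded mRNA ligation libraries. Per the submitters' processing notes, STAR, DESeq2 and the build GRCm39 were used; the counting tool, its use of strand and the annotation release are not given in the sources used here. Symbols came from a reference gene table, which matched 90.7% of the 57186 rows. Exon lengths came from GENCODE annotation on GRCm38, so no gene coordinates on GRCm39 are printed. The members and lists were chosen with earlier results of these data known.

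Counts were tested with edgeR 4.0.16 in R 4.3.3 (quasi-likelihood F test, TMM factors, filterByExpr with a count minimum of 10 and a total minimum of 15, Benjamini-Hochberg over all genes tested: 13941 in NIH/3T3, 15933 in CGR8 and 17549 in the joint fit). Each line was fitted on its 15 libraries, and line differences on all 30. All 10 members passed the filter in NIH/3T3 and the joint fit, and 9 in CGR8. SE is the log2 change over the square root of F. CPM use TMM factors. Alternatives were RLE factors, library totals alone, no filter, a mean of at least 5 CPM, DESeq2 1.42.0, limma 3.58.1 voom with sample weights, the compared groups only, a replicate block, and each library left out. Of the further pathway lists, the text names, per list and line, the called genes with the 2 greatest rises and the 2 greatest falls (mean 1 CPM or more). Likeness was ranked among genes whose mean was 10 CPM or more. All tests were two-sided, and counting error alone is covered by the floor of 3 counts.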

Additional observations from a re-analysis of the deposited data

Results flagged for a closer look

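Each result here was singled out because a test of the difference between the lines, CGR8 minus NIH/3T3 in the log2 change against 0 h, passed an adjusted p of 0.05 in the edgeR fit of all 30 libraries. For Ccn1 the difference was -1.21, -1.57, -0.81 and -1.58 at 1, 2, 5 and 48 h in turn. For Ccn2 it was -1.02 at 2 h and -1.44 at 5 h. For Amotl2 it was -1.50 at 5 h and -1.09 at 48 h, and for Ajuba -1.21 at 5 h. For Axl at 48 h it was 1.52, the only one in which the CGR8 change was the higher. The lines also differ in medium and serum, whose part was not tested and cannot be told apart from the line. Each of these 10 calls was kept when any 1 of the 12 libraries of its comparison was left out. Some were kept only narrowly: the highest adjusted p was 0.0498 for Ccn1 at 1 h, 0.0495 for Ccn2 at 2 h and 0.0482 for Ccn1 at 5 h.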

How the results depend on the processing

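Of 179 changes of single members, 78 were called, and 0 of those took the other sign under an alternative or without a library. Of the 101 that were not called, 35 did, each with a log2 change of at most 0.17 in size in the main analysis. In 1 of these the alternative was itself a call: the NIH/3T3 step from 1 h to 2 h of Amotl2, 0.03 in the main analysis, was -0.24 with voom and sample weights (adjusted p = 0.0108; the cause was not tested). The side of the threshold was kept by 175 with DESeq2, 178 with RLE factors, 166 with library totals, 169 without a filter, 153 of 157 with a mean of at least 5 CPM, 152 with voom, 117 of 133 with the compared groups only, and 1206 of 1290 with a library left out. Library totals moved the median of all genes at 5 h in CGR8 to -0.12. Depth limits Lats2, Axl and Ankrd1 in CGR8.

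The labels do not say whether replicate letters mark a shared culture or day, and the libraries were not treated as pairs. Of 60 same-letter pairs, 12 had correlated deviations over 0.1 (range -0.52 to 0.37). With 3 libraries a group, such values cannot exclude a shared culture or day. With a replicate block 178 of 179 results kept their side; the CGR8 step from 2 h to 5 h of Wwtr1 (-0.40) had an adjusted p = 0.0505.

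Counts of called genes that moved are given as members, kinases and scaffolds, TEAD partners and other targets. In NIH/3T3 at 1 h against 0 h (main 3, 0, 0 and 0), voom called 6, 10, 3 and 5. There DESeq2 called 4 kinases, 2 partners and 1 other target, no filter 2 kinases and 1 other target, a mean of at least 5 CPM 1 other target, and the compared groups only 1 member. At 2 h voom called 4 partners and the compared groups only 1 (main 2). At 5 h voom and the compared groups only each called 8 members (main 5), and for 1 h to 2 h they called 8 and 0 (main 5). In CGR8 at 1 h (main 1, 1, 0 and 0), library totals, a mean of at least 5 CPM and DESeq2 each called 2 members. Voom called 3 members, 4 kinases and 2 other targets. No filter, DESeq2 and the compared groups only called 2 kinases, and DESeq2 1 other target. At 2 h a mean of at least 5 CPM called 1 partner (main 2), and the compared groups only 5 kinases, 1 partner and 4 other targets (main 9, 2 and 8). At 5 h a mean of at least 5 CPM called 2 partners (main 5). At 48 h (main 8 kinases, 2 partners, 7 other targets) no filter called 5 kinases and voom 14. No filter, a mean of at least 5 CPM, DESeq2 and the compared groups only each called 1 partner, and a mean of at least 5 CPM 4 other targets. From 1 h to 2 h no filter and DESeq2 each called 1 member (main 0). For the line differences voom called 3 members at 1 h (main 1) and 5 at 48 h (main 3).

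With 1 library left out, NIH/3T3 counts ranged at 1 h from 2 to 6 members, 0 to 3 kinases, 0 to 2 partners and 0 to 1 other targets, at 2 h from 1 to 4 partners, at 48 h from 5 to 8 members, and from 1 h to 2 h from 2 to 6 members. CGR8 counts ranged at 1 h from 0 to 0 members and 0 to 1 kinases, at 2 h from 2 to 4 members, 0 to 3 partners and 3 to 8 other targets, at 48 h from 2 to 4 members, 3 to 7 kinases and 0 to 2 partners, from 1 h to 2 h from 0 to 1 members, and from 5 h to 48 h from 2 to 6 members.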
